A study of Mus musculus with 10 samples.

Results

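Expression of 40 germline genes was examined in germinal center B cells with and without ZBTB38. The genes were chosen by name, from meiosis, the piRNA pathway and germ cell gene regulation, as genes usually silent in somatic cells through promoter methylation, a rule that uses no measured value, although earlier results of these data were known when it was set. All 40 were found by symbol among the 22380 genes quantified. Bulk RNA-seq was performed on NP-binding germinal center B cells of C57Bl6/N mice, 2 weeks after immunization with NP-OVA, a hapten coupled to ovalbumin. There were 2 libraries of WT mice (Zbtb38 fl/fl without Cre), 2 of HET mice (Zbtb38 fl/+ x Vav-Cre) and 6 of KO mice (Zbtb38 fl/fl x Vav-Cre). Littermates served as controls, and the floxed line came from a single founder. The floxed exon holds the whole coding sequence of Zbtb38, and Vav-Cre is active mainly in blood-forming cells. WT mice lacked Cre, so that Cre and the deletion cannot be told apart in WT against KO. Age and sex of the mice were not given in the sources used here.

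Germline genes serve meiosis, transposon control and gamete formation, and many carry CpG-rich promoters that are methylated in somatic tissues. Loss of the maintenance methyltransferase is known to release a number of them in somatic cells. Methylated CpGs can be read by proteins of the MBD family and by a few BTB zinc finger factors, among them ZBTB38, which are linked to transcriptional repression. The comparisons address whether germline genes were higher when the reader ZBTB38 was missing.

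The promoters of 4 of the genes are shown to give the CpG content of this class. RefSeq promoter windows on GRCm38.p6 were matched for 33 of the 40 genes, and windows for Spo11, Piwil2, Tex11, Tex15, Rnf17, Meiob and Tdrd6 were not analysed here. Stag3, a meiotic cohesin subunit (chr5:138280259-138280508, + strand), and Tex14, a protein of the bridges between germ cells (chr11:87404815-87405064, + strand), had the highest median TPM among the 33. Tdrd5 (chr1:156303349-156303598, - strand) and Stk31 (chr6:49395289-49395538, + strand), which encode Tudor domain proteins of germ cells, had the most CpGs among genes that never exceeded 3 counts. The start is that of the RefSeq promoter entry, which can differ from the Gencode gene positions given below, and 8 genes had several promoters. For Stag3 and Tdrd5 the stretch shown lies inside the Gencode span of the gene. Each sequence is the 250 bases before the RefSeq start, 5′ to 3′, with every CpG in capitals.
Stag3: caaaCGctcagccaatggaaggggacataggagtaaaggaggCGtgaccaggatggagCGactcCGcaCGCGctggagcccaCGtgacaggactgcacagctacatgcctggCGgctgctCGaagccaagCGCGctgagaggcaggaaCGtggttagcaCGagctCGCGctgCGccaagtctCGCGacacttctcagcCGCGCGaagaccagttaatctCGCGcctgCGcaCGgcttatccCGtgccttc
Tex14: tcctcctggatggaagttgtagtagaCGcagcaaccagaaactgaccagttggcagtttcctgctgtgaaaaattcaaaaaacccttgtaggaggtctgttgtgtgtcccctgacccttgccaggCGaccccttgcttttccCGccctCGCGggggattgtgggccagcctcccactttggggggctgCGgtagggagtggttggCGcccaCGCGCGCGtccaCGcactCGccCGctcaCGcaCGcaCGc
Tdrd5: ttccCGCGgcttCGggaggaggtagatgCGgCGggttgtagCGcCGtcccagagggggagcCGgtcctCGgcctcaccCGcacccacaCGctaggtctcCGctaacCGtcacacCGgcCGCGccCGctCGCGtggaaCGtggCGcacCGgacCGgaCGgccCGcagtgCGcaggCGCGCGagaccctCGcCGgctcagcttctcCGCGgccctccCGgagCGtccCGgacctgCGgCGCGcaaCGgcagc
Stk31: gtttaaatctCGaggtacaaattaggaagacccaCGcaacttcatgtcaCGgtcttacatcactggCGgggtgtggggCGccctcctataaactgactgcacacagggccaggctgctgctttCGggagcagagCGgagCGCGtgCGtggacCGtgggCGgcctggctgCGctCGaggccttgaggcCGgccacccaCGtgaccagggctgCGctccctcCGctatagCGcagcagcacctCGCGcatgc

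These 250 bases held 26 CpGs in Stag3, 17 in Tex14, 40 in Tdrd5 and 21 in Stk31. Over the full window of 300 bases, which adds 50 bases after the start, the 33 genes had a median of 19 CpGs (range 6 to 48). The median over 27025 RefSeq promoters was 7. The E2F6-type motif TCCCGC, searched on both strands, was found in 13 of the 33 windows (39.4%) and in 5410 of the 27025. The E-box CACGTG, which reads the same on both strands, was found in 45.5% of the 33 and in 7.24% of all; Stag3 and Stk31 hold it in the stretch shown. The 13 genes that never exceeded 3 counts and the 20 that did had the same median of 19 CpGs. DNA methylation was not measured in these libraries.

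Library totals ranged from 26612431 to 41059082 estimated counts. A gene was called detected in a library above 3 estimated counts, the limit that a count of 0 allows, which was between 0.0731 and 0.113 CPM (counts scaled to the library total) and covers counting error only. KO replicate 6 stood apart, with a median correlation of 0.954 to the other libraries against 0.971 to 0.983 for the rest. Levels of the genes are given in TPM, which is corrected for transcript length. CPM of genes, unlike that of the detection limit, was scaled to totals of the filtered genes corrected by edgeR's normalization factors (TMM). Zbtb38 itself was 157 ± 7.02 CPM in WT (SD, n = 2), 112 ± 8.23 in HET (n = 2) and 31.7 ± 10.8 in KO (n = 6, range 18.6 to 50.3). The change from WT to KO was -2.31 on the log2 scale (SE 0.274, edgeR adjusted p = 0.0734), a call lost when any 1 of 6 libraries was left out. Against WT plus HET it was -2.08 (SE 0.232, edgeR adjusted p = 0.0104). Means in TPM for Zbtb38 were 63.4 in WT, 49.6 in HET and 25.8 in KO. The paper reports complete loss of transcripts within the floxed exon in KO, whereas sums per gene also count exons outside it.

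The germline genes were at or near 0 in every genotype. Of the 40, 12 were at 0 in all 10 libraries, beside 21.7% of all genes, namely Sycp2, Meiob, Mael, Tdrd6, Mov10l1, Stk31, Dazl, Taf7l, Cyct, Tex101, Dpep3 and Nlrp4c. Over the pooled KO libraries (181203253 counts) a count of 0 allows up to 0.0166 CPM. Sycp3, Hormad1 and Tdrd5 had counts but never above 3. The other 25 exceeded 3 counts in at least 1 library, and 2 of them, Stag3 and Piwil2, did so in all 10, whereas 51.9% of all genes did. The median of the genes' mean TPM was 0.0321, beside 0.902 over all genes. Spo11 and Stag3 were the 2 genes with a mean above 1 TPM, and the highest value in any library was 5.29 TPM.

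**Figure D1:**
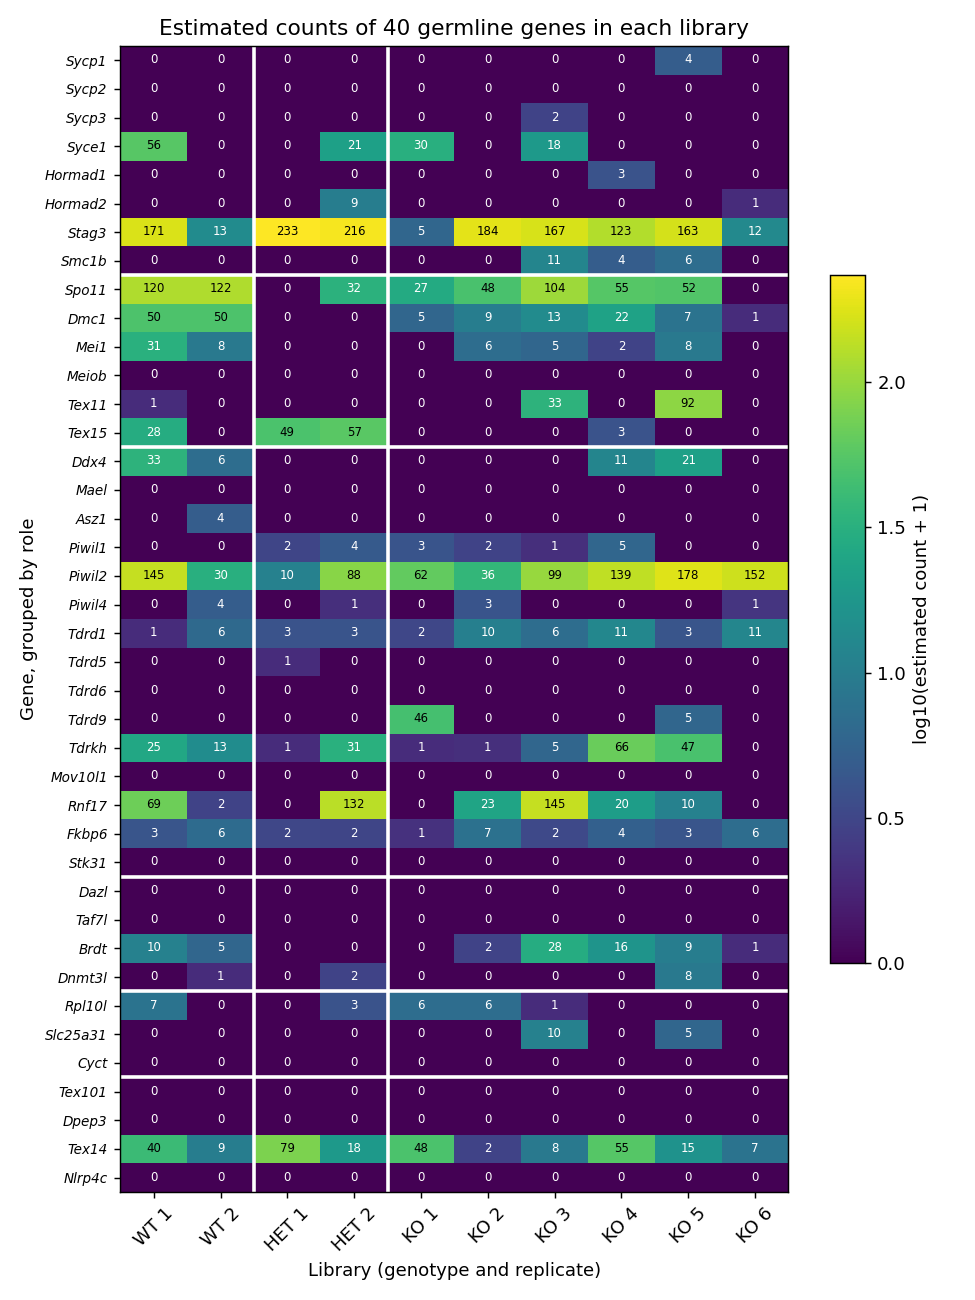
Estimated counts of the 40 germline genes (rows, grouped by role) in the 10 libraries (columns), with each count printed and coloured as log10(count + 1). 12 rows are 0 throughout, and counts above 100 are limited to Stag3, Spo11, Piwil2 and Rnf17.

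The number of genes above 3 counts was 14 and 13 in WT, 5 and 11 in HET, and 9, 10, 14, 13, 18 and 5 in KO replicates 1 to 6. The summed TPM of the 40 genes was 11.6 and 8.86 in WT, 6.02 and 12.5 in HET, and 4.59, 10.1, 12.8, 10.4, 11.8 and 2.13 in KO. The genotypes overlapped in both measures, and KO replicate 6 had the lowest sum. The means were 10.2 ± 1.91 TPM in WT (SD, n = 2), 9.25 ± 4.57 in HET (n = 2) and 8.65 ± 4.28 in KO (n = 6), or 9.95 ± 3.19 without KO replicate 6. The KO mean was 0.847 times the WT mean in TPM, 0.974 times without KO replicate 6 and 1.01 times in CPM. In all, 16 genes were detected in both control and KO libraries, 6 in KO alone (Sycp1, Smc1b, Tex11, Tdrd9, Dnmt3l and Slc25a31) and 3 in WT or HET alone (Hormad2, Tex15 and Asz1). Since 6 KO libraries stand against 4 controls, these numbers are a description. The matching shares over all genes are not given here, so the 6 and 3 are not read as a direction.

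**Figure D2:**
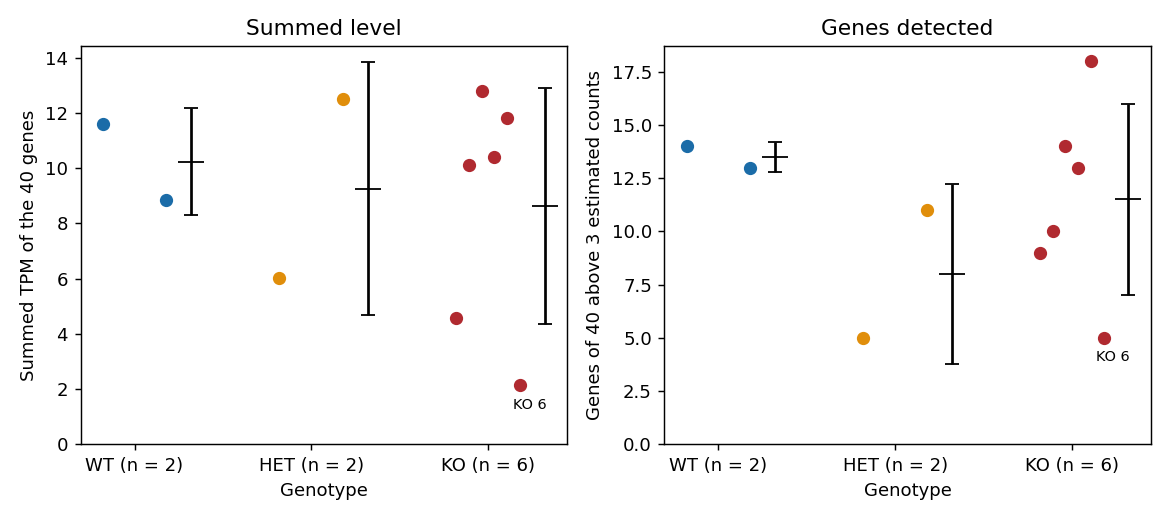
Summed TPM of the 40 germline genes (left) and number of genes above 3 estimated counts (right) for each library by genotype, with black bars for mean and SD. The KO libraries span 2.13 to 12.8 TPM and enclose all WT and HET values.

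No germline gene passed an adjusted p of 0.1 in any comparison by edgeR's quasi-likelihood test. In WT against KO, 12 of the 40 had enough counts to be tested and 0 were called, beside 0.00704% of all genes tested (1 of 14203, Zbtb38 itself). At an unadjusted p under 0.05 there was 1 of 12, Dmc1, lower in KO, beside 2.19% of all genes. In WT plus HET against KO, 0 of 8 were called, beside 0.00749% of all genes, and 0 of 8 had an unadjusted p under 0.05, beside 6.3%. The median log2 change was 0.31 over the 12 genes in WT against KO (all genes 0.01), with 8 above 0 and 4 below. It was -0.5 over the 8 genes in WT plus HET against KO (all genes 0.02), with 2 above 0 and 6 below. The genes tested are those with the higher counts, and their medians do not describe the 40. In WT against KO, Tex11, Brdt and Tdrd1, all above 0, passed the count filter only through KO libraries where they were high. The median and the 8 above 0 in that comparison thus depend partly on this selection. DESeq2 called 0 of 12 in WT against KO, beside 0.0425% of all genes, and 0 of the 6 to which it gave an adjusted p in WT plus HET against KO, beside 0.143%. With no filter on counts, 27 and 28 of the genes could be tested, and 0 were called in either comparison, beside 0.00575% and 0.00572% of all genes. In those fits, 2 of 27 and 4 of 28 had an unadjusted p under 0.05, beside 3.05% and 7.17% of all genes. The 2 were Dmc1 and Tex15, both lower in KO. The 4 were Tex15, lower in KO, and Tex11, Smc1b and Tdrd9, higher in KO (edgeR adjusted p = 0.663 for each).

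**Figure D3:**
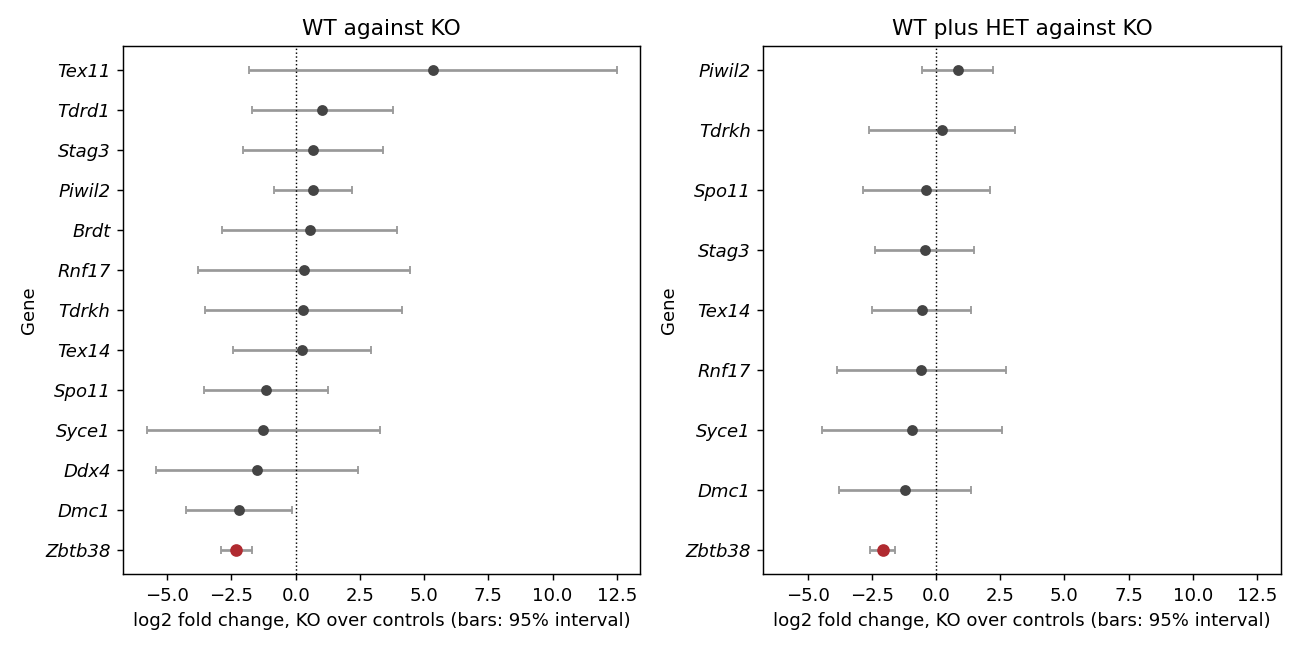
Log2 fold change of KO over controls with its 95% interval for each germline gene tested, and for Zbtb38 (red), in WT against KO (left) and WT plus HET against KO (right). The interval of Dmc1 in the left panel (-4.27 to -0.14) is the only one among the germline genes that leaves out 0.

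Among the 8 genes of the meiotic chromosome axis, synaptonemal complex and cohesin, Stag3 was the highest. Stag3 (chromosome 5, 138280240 to 138312393) encodes a cohesin subunit used in meiosis. Its level was 2.27 and 0.962 TPM in WT, 3.4 and 5.18 in HET, and 0.359, 5.29, 2.72, 3.82, 3.65 and 0.604 in KO. The KO libraries enclosed all 4 controls, with KO replicates 1 and 6 lowest. The log2 change was 0.68 in WT against KO (SE 1.24, edgeR adjusted p = 0.999) and -0.43 against WT plus HET (SE 0.893, edgeR adjusted p = 0.927). Stag3 counts were spread over all 6 annotated transcripts, with 45.4% in the leading one.

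Syce1, a central element protein of the synaptonemal complex, was 1.49 and 0 TPM in WT, 0 and 0.848 in HET, and 1.39, 0, 0.587, 0, 0 and 0 in KO. Each genotype thus had a library at 0 and a library with 20 or more counts. The log2 change was -1.27 in WT against KO (SE 2.05, edgeR adjusted p = 0.999) and -0.92 against WT plus HET (SE 1.61, edgeR adjusted p = 0.909). Smc1b, a meiotic cohesin subunit, had 11, 4 and 6 counts in KO replicates 3, 4 and 5 and 0 in the other libraries. Sycp1, the transverse filament protein, had 4 counts in KO replicate 5 alone, and Hormad2, an axis protein, had 9 in HET replicate 2 and 1 in KO replicate 6. Sycp3 and Hormad1, also of the axis, reached 2 and 3 counts in a single KO library each, and Sycp2 stayed at 0.

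The 6 meiotic recombination genes include Dmc1, the 1 gene with an unadjusted p under 0.05 among the 12 tested in WT against KO. Dmc1 (chromosome 15, 79561497 to 79605109) encodes the meiotic strand exchange recombinase. It had 50 and 50 counts in WT, 0 and 0 in HET, and 5, 9, 13, 22, 7 and 1 in KO. WT libraries were highest, HET libraries lowest, and the groups did not overlap. The log2 change from WT to KO was -2.21 (SE 0.935, 95% interval -4.27 to -0.14, edgeR adjusted p = 0.999), a lower level in KO. In TPM, Dmc1 was 0.883 and 1.34 in WT and 0.0224 to 0.603 in KO (median of all libraries 0.202). Against WT plus HET the change was -1.21 (SE 1.19, edgeR adjusted p = 0.821).

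Summed markers of other cell types were also higher in WT than in HET, although edgeR called 0 of these markers in any comparison. All 8 T cell markers were above 3 counts in some library, and their summed level was 233 to 241 TPM in WT, 144 to 149 in HET and 129 to 185 in KO. Among them Trac, of the T cell receptor, was 42.9 to 47.8 TPM in WT, 7.15 to 9.32 in HET and 9.52 to 29.5 in KO, whereas Lck, a T cell kinase, was 116 to 124 TPM in WT, 120 to 122 in HET and 77.0 to 122 in KO. The 8 myeloid markers summed to 527 to 647 TPM in WT, 88.4 to 89.4 in HET and 83.5 to 926 in KO. The 6 erythroid markers summed to 133 to 187 TPM in WT, 104 to 114 in HET and 176 to 257 in KO, and the 5 plasma cell markers to 1470 to 1650, 1270 to 1320 and 1290 to 1690. Their part in the Dmc1 difference was not tested. In bulk samples, fewer cells of a type and less RNA per cell cannot be told apart. Germinal center B cell markers summed to between 5490 and 7080 TPM in all libraries.

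Spo11 (chromosome 2, 172977700 to 172993576), which encodes the enzyme that makes meiotic double-strand breaks, was 2.81 and 4.23 TPM in WT, 0 and 1.14 in HET, and 0.74, 1.76, 3.03, 1.78, 1.61 and 0 in KO. HET and KO replicate 6 held the zeros, and WT and KO overlapped through KO replicate 3. The log2 change was -1.15 in WT against KO (SE 1.09, edgeR adjusted p = 0.999) and -0.37 against WT plus HET (SE 1.14, edgeR adjusted p = 0.958). One transcript, the leading one, took 87.5% of the Spo11 counts.

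Tex15 (chromosome 8, 33516738 to 33585582), needed for meiotic recombination and transposon silencing in the male germ line, had 28 and 0 counts in WT, 49 and 57 in HET, and 0, 0, 0, 3, 0 and 0 in KO. KO libraries were at or under the floor, both HET libraries were above it, and WT was split. The count ratio of HET to KO, with libraries pooled, was 106, with a 95% counting interval of 35.2 to 520 (106 against 3 counts). This interval covers counting error only and leaves out the spread between libraries. A two-sided exact permutation test of log2(CPM + 1) gave -0.91 for KO minus WT plus HET (p = 0.0333), and -0.35 for KO minus WT (p = 0.25).

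Tex11, an X-linked meiotic crossover gene, had 33 and 92 counts in KO replicates 3 and 5, 1 in WT replicate 1 and 0 in the other 7 libraries. The log2 change from WT to KO was 5.34 with a 95% interval of -1.82 to 12.5 (edgeR adjusted p = 0.999). The 2 KO libraries each used a different Tex11 transcript. Mei1, a meiotic double-strand break factor, had 31 and 8 counts in WT, 0 and 0 in HET, and 0, 6, 5, 2, 8 and 0 in KO. WT was higher than KO on the log2(CPM + 1) scale (KO minus WT -0.42, two-sided exact permutation p = 0.0357, the smallest that 2 against 6 allows), but the test against WT plus HET gave -0.13 (exact permutation p = 0.495). In TPM, WT replicate 2 (0.0989) lay below KO replicates 2 (0.103) and 5 (0.116), so that WT and KO overlapped. The edgeR fit with no filter gave an adjusted p of 0.989 for Mei1 in WT against KO. Meiob was at 0.

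Of 15 genes that the count filter left out of WT against KO but that had a count in those libraries, Mei1 was the 1 with an exact permutation p under 0.05, beside 2.86% of 3215 such genes in all. Of 20 such genes in WT plus HET against KO, it was Tex15, beside 2.11% of 4174, where the smallest p possible is 0.00476. In both genes the KO mean was the lower one. Genes at 0 in several KO libraries and in both WT libraries could not reach that limit with KO higher.

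**Figure D4:**
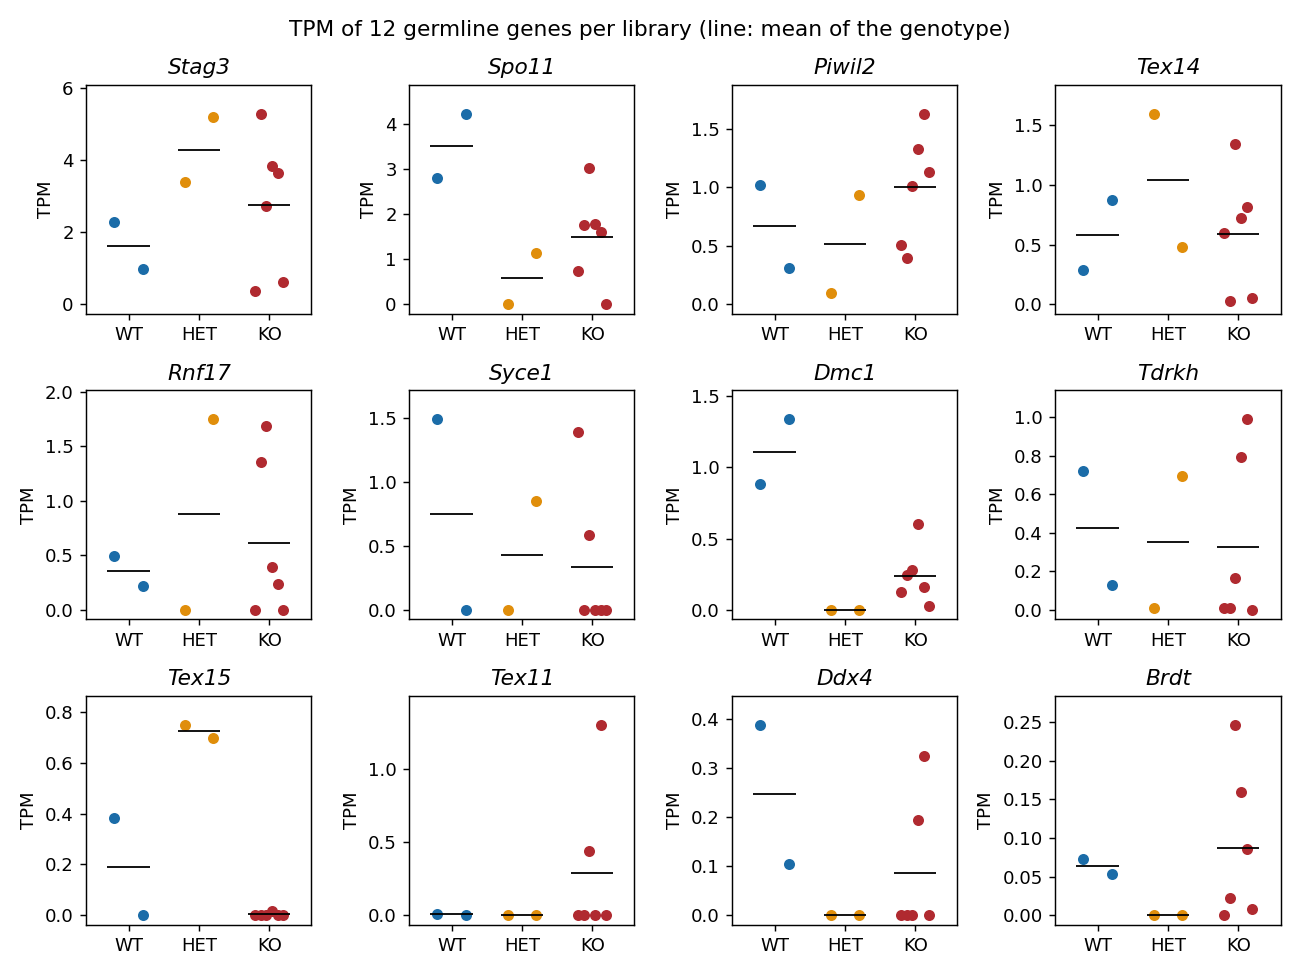
TPM of 12 germline genes in each library by genotype (points: libraries, lines: means of 2 WT, 2 HET and 6 KO), each panel with its own axis. For Dmc1, WT points lie above all KO points and HET points are at 0, for Tex15 KO meets the controls only at the WT library at 0, and in the other panels KO overlaps WT or HET.

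The 15 genes of the piRNA pathway and nuage, the germ cell granules where transposons are silenced, were led by Piwil2. Piwil2 (chromosome 14, 70372477 to 70429383), a PIWI protein that binds piRNAs, was 1.02 and 0.308 TPM in WT, 0.0911 and 0.93 in HET, and 0.506, 0.392, 1.01, 1.33, 1.63 and 1.13 in KO. The 3 highest libraries were KO, and the lowest was a HET library. The log2 change was 0.67 in WT against KO (SE 0.695, edgeR adjusted p = 0.999) and 0.85 against WT plus HET (SE 0.642, 95% interval -0.54 to 2.24, edgeR adjusted p = 0.768). One transcript carried 99.8% of the counts.

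Rnf17, a Tudor domain protein of the nuage, was 0.496 and 0.218 TPM in WT, 0 and 1.75 in HET, and 0, 1.36, 1.69, 0.39, 0.233 and 0 in KO. The 1.36 TPM of KO replicate 2 came from 23 counts, 10.2 of them in a transcript of 680 bases, whereas KO replicate 3 had 145 counts. Tdrkh, a Tudor domain partner of PIWI proteins, was 0.721 and 0.129 TPM in WT, 0.00807 and 0.695 in HET, and 0.00712, 0.0101, 0.162, 0.794, 0.99 and 0 in KO. Levels in KO enclosed those of WT for both genes. The log2 change from WT to KO was 0.32 for Rnf17 (SE 1.86, edgeR adjusted p = 0.999) and 0.3 for Tdrkh (SE 1.73, edgeR adjusted p = 0.999). Against WT plus HET it was -0.57 for Rnf17 (SE 1.51, edgeR adjusted p = 0.948) and 0.24 for Tdrkh (SE 1.3, edgeR adjusted p = 0.98). Tdrkh overlaps Oaz3 on the opposite strand, and strand use in the counting is not given in the sources used here.

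Ddx4, the germ cell RNA helicase Vasa, had 33 and 6 counts in WT, 0 and 0 in HET, and 11 and 21 in KO replicates 4 and 5, with 0 in the other KO libraries. The log2 change from WT to KO was -1.5 (SE 1.78, edgeR adjusted p = 0.999). Tdrd1, a Tudor scaffold of the nuage, had between 1 and 11.4 counts in the 10 libraries, with a log2 change from WT to KO of 1.03 (SE 1.24, edgeR adjusted p = 0.999). Tdrd9, a helicase of the pathway that overlaps Rd3l on the opposite strand, had 46 and 5 counts in KO replicates 1 and 5 and 0 elsewhere.

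Fkbp6, a cochaperone of the pathway, was detected in 6 libraries with at most 6.7 counts. The PIWI genes Piwil1 and Piwil4 reached 5.1 and 4.0 counts, and Asz1, a nuage protein, had 4 counts in WT replicate 2 alone. Tdrd5 had 1 count, and Mael, Tdrd6, Mov10l1 and Stk31 were at 0.

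Of the 4 genes of germ cell RNA binding, transcription and chromatin, Dazl and Taf7l were at 0. Brdt, the testis bromodomain protein, had 10 and 5 counts in WT, 0 and 0 in HET, and 0, 2, 28, 16, 9 and 1 in KO. WT fell within the range of KO, and the log2 change from WT to KO was 0.54 (SE 1.54, edgeR adjusted p = 0.999). Dnmt3l, the cofactor of de novo methylation in germ cells, had 8 counts in KO replicate 5, 2 in HET replicate 2 and 1 in WT replicate 2. It overlaps Aire on the opposite strand.

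Among germ cell forms of housekeeping proteins, Rpl10l, a ribosomal protein gene nearly identical to Rpl10 that may share its reads, had at most 7 counts. Slc25a31, an ADP/ATP carrier, had 10 and 5 counts in KO replicates 3 and 5, and Cyct, the testis cytochrome c, was at 0. Of the remaining 4 genes, Tex101, Dpep3 and Nlrp4c were at 0. Tex14 was 0.29 and 0.871 TPM in WT, 1.6 and 0.478 in HET, and 0.596, 0.0225, 1.34, 0.724, 0.815 and 0.0537 in KO. HET replicate 1 was highest and KO replicate 2 lowest, and the genotypes overlapped. The log2 change of Tex14 was 0.24 in WT against KO (SE 1.21, edgeR adjusted p = 0.999) and -0.56 against WT plus HET (SE 0.885, edgeR adjusted p = 0.9).

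HET and KO mice both carry Vav-Cre. In HET against KO, 0 of 13 germline genes were called by edgeR, beside 0.00697% of 14354 genes. Zbtb38 itself was not called there (log2 change -1.82, SE 0.261, edgeR adjusted p = 0.128), which limits what 0 of 13 can show. At an unadjusted p under 0.05 there were 3 of 13, beside 10.2% of all genes. One of them, Tex15, had a log2 change of -6.49 (SE 1.52, edgeR adjusted p = 0.262). It passed the count filter here, and not in WT against KO or WT plus HET against KO, through the 2 HET libraries where it was high. Dmc1 and Brdt were at 0 in both HET libraries and higher in KO (edgeR adjusted p = 0.355 and 0.447). Their KO means were 3.17-fold and 3.06-fold the floor of 3 counts per library in HET. These ratios carry no spread between libraries, and Dmc1 had 1 count in KO replicate 6, under that floor. For Brdt, 3 of 6 KO libraries were at or under that floor, and its ratio fell to 1.83-fold without KO replicate 3. Brdt passed the count filter only through KO libraries where it was high. DESeq2 called Dmc1 here (DESeq2 adjusted p = 0.082), where it called 3.54% of all genes, and did not call Tex15.

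In WT against HET, 0 of 13 germline genes were called by edgeR, beside 0.00697% of all genes, and 1 of 13 had an unadjusted p under 0.05, beside 6.42%. It was again Dmc1, higher in WT than in HET (edgeR adjusted p = 0.709, DESeq2 adjusted p = 0.0315), and DESeq2 called 0.895% of all genes. The WT mean of Dmc1 was 14.8-fold the detection limit of the HET libraries, where Dmc1 was at 0. That ratio carries no spread between libraries and is no lower bound for the genotypes. A fit on the 4 WT and HET libraries alone called Dmc1 (edgeR adjusted p = 0.0614), and called 3.96% of all genes. Dmc1 passed the count filter of that fit only through the WT libraries, where it was high. The DESeq2 call rests on the same WT and HET libraries, so these calls are not independent. The HET against KO and WT against HET comparisons share the HET libraries. Zbtb38 was not called by edgeR in WT against HET either (log2 change -0.49, SE 0.345, edgeR adjusted p = 0.873).

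Germline genes were set beside somatic counterparts in 10 pairs, and the germline gene was below its counterpart in every library in 10 of 10. Stag3 (0.359 to 5.29 TPM) was closest to its counterparts, beside at most 46.3 TPM for Stag1 (median 32.7) and 32.9 to 62.2 for Stag2, and its highest value stayed below the lowest of Stag1. Smc1b reached 0.728 TPM beside 73.2 to 118 for Smc1a. Rpl10l reached 0.389 TPM beside 516 to 781 for Rpl10, and Slc25a31 reached 0.211 beside 167 to 206 for Slc25a4 and 1160 to 1420 for Slc25a5. Cyct, Taf7l and Mov10l1 were at 0 beside 61.7 to 102 TPM for Cycs, 6.26 to 12.8 for Taf7 and 5.14 to 12.4 for Mov10. Dnmt3l reached 0.343 TPM beside 5.93 to 21.3 for Dnmt3a. Of the 10 somatic counterparts, 0 were called in any comparison by edgeR.

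**Figure D5:**
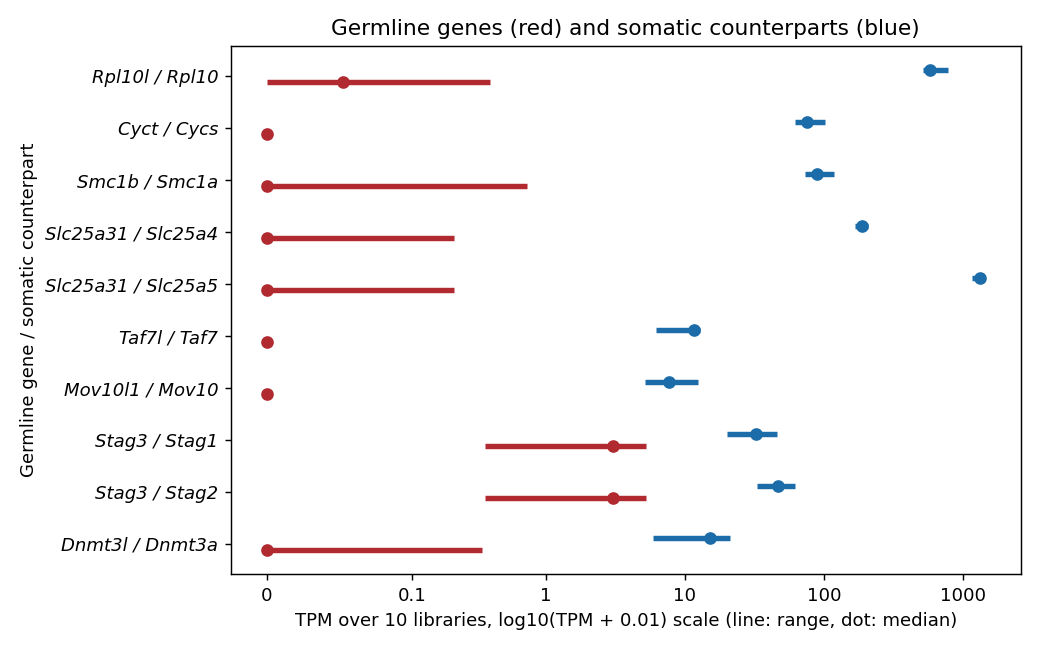
TPM of germline genes (red) and their somatic counterparts (blue) on a log10(TPM + 0.01) scale, with lines for the range and dots for the median over 10 libraries. The ranges do not overlap in any of the 10 pairs, and Stag3 with Stag1 is the closest.

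Germline genes outside the 40 were divided between silent and detected ones. Of 28 listed, 25 were measured, and 12 of these never exceeded 3 counts, of which 11 were at 0 in every library. The edgeR test called 0 of 7 in WT against KO and 0 of 6 in WT plus HET against KO. The smallest p-values were those of Msh5, a mismatch repair family gene of meiosis (log2 change 0.46 against WT plus HET, SE 0.207, edgeR adjusted p = 0.744), and Rec8, a meiotic cohesin (-0.61, SE 0.7, edgeR adjusted p = 0.855). Syce2, of the synaptonemal complex, stood out from the list with 25.9 to 53.5 TPM over all libraries, and was named after its values were seen. Markers of male germ cells summed to 2.23 to 2.5 TPM in WT, 0.476 to 1.84 in HET and 0 to 4.1 in KO, with Tnp1 and Acr at 0.

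The machinery that methylates DNA and reads it was expressed. All 13 genes of that list were tested, and 0 were called in any comparison by edgeR. Dnmt1, the maintenance methyltransferase, was 140 to 156 TPM in WT, 191 to 212 in HET and 71.2 to 163 in KO. Its log2 change was -0.39 in WT plus HET against KO (SE 0.179, edgeR adjusted p = 0.744) and -0.61 in HET against KO (SE 0.202, edgeR adjusted p = 0.373). The methyl-CpG readers Mbd2 (-0.39, SE 0.394) and Zbtb4 (-0.18, SE 0.23) had the smallest p-values in WT against KO (edgeR adjusted p = 0.999 for both).

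Of 13 genes of repressor complexes known to act at germline promoters, 0 were called in any comparison by edgeR. Ehmt2, a histone H3 lysine methyltransferase, had a log2 change of -0.44 in WT plus HET against KO (SE 0.144, edgeR adjusted p = 0.744), and its partner Ehmt1 -0.4 (SE 0.183, edgeR adjusted p = 0.744). In HET against KO, 0 of 13 had a log2 change above 0, beside 56.3% of all genes, and the median was -0.19 (all genes 0.07). In WT against HET, 12 of 13 were above 0 (median 0.12), beside 48.7% of all genes. In WT against KO 4 of 13 were (median -0.09), beside 51.8% of all genes. Both HET comparisons use the same HET libraries, so that their counts are not independent. The smallest p in HET against KO was that of Kdm5c, a histone demethylase (-1.05, SE 0.304, edgeR adjusted p = 0.346). Kdm5c was 14.4 to 16.6 TPM in WT, 39.7 to 40.4 in HET and 5.59 to 26.1 in KO.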

How the data were processed

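RNA-seq of NP-binding germinal center B cells from 2 WT, 2 HET and 6 KO mice was analysed, grouped by the sample labels. RNA was purified with a Nucleospin XS kit, and SMART-Seq v4 libraries were sequenced as paired ends. The authors deposited estimated counts per transcript from Salmon (0.9.1 in the submitters' processing notes) against Gencode vM17, not normalized, for 64019 transcripts. The authors also deposited TPM, scaled by effective length and library total. Both were summed per gene (22380 genes). Positions are those of Gencode vM21 on GRCm38.

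Summed counts were rounded and tested with edgeR 4.0.16 (quasi-likelihood, TMM, filterByExpr, Benjamini-Hochberg over all genes tested, threshold 0.1) in R 4.3.3. WT against KO and WT plus HET against KO were fitted on their own libraries, and both HET comparisons on all 10 with a term per genotype. Genes left out by the filter were compared by two-sided exact permutation tests of log2(CPM + 1). Alternatives used DESeq2 1.42.0, its size factors, limma 3.58.1 on TPM, other filters, a replicate block and each library left out. Scripts were tested on simulated data. Tools also included scipy 1.17.1, pandas 2.3.3 and matplotlib 3.10.9. Totals of 26612431 to 41059082 counts limit detection to 3 counts, for counting error only.

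The 40 genes and the other lists were chosen with earlier results of these data known. Genes that passed the filter were given per library, those with an unadjusted p under 0.05 with full statistics, the rest by detection, and from the other lists the 2 with the smallest p. A further 2 somatic counterparts are not reported here. The labels number the replicates, and p-values measure the spread between these libraries. No pair of libraries in a group agreed within sampling noise.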

Additional observations from a re-analysis of the deposited data

Results flagged for a closer look

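The KO values of the 28 germline genes with a count in any library, of their summed TPM and number detected, and of Zbtb38 were checked for a single library far from the other 5, by its gap to the nearest value over the range of the group. This marked 11 of 31 sets of values, all single genes, where chance marks about 1 in 20 (1.55 of 31). The check is easily met by genes at 0 in most libraries. The ratio was 1.0 for Sycp1 (KO replicate 5, 4 counts), Dnmt3l (KO replicate 5, 8 counts), Hormad2 (KO replicate 6, 1 count), Tex15 (KO replicate 4, 3 counts), Sycp3 (KO replicate 3, 2 counts) and Hormad1 (KO replicate 4, 3 counts). The last 4 do not exceed the detection limit. It was 0.907 for Smc1b (KO replicate 3, 0.728 TPM beside at most 0.0675). That library held 11 Smc1b counts beside 4 and 6 in KO replicates 4 and 5, so it stood less apart in counts than in TPM. The ratio was 0.873 for Tdrd9 (KO replicate 1, 0.488 TPM beside at most 0.0622). It was 0.798 for Piwil4 (KO replicate 2), 0.731 for Piwil1 (KO replicate 4) and 0.664 for Tex11 (KO replicate 5, 1.3 TPM beside at most 0.436). The libraries that stood out differed from gene to gene, and KO replicate 5 was the one for 3 of the 11.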

How the results depend on the processing

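The number of germline genes called stayed at 0 in WT against KO and in WT plus HET against KO under every alternative run. It was 1 in HET against KO with DESeq2, and 1 in WT against HET with DESeq2 and with only the 2 groups, each time Dmc1, which was at 0 in HET, so that its fitted changes are no measure of size. For members, fold changes of both HET comparisons were followed where the unadjusted p was under 0.05. Over all genes, calls in WT against KO were 6 with DESeq2, 0 and 3 with limma on log2(TPM + 1) and log2(TPM + 0.1), 6 with the replicate block, 2 with all 10 libraries, and 0 to 2 with a library left out. In WT plus HET against KO they were 18, 0, 0 and 0 (replicate block), and 1 to 2. In HET against KO they were 458 with DESeq2, 2 with no filter, 6 with limma on log2(TPM + 0.1), 4 with the block, 0 with only the 2 groups, and 0 to 5. In WT against HET they were 123, 5 with limma on log2(TPM + 0.1), 66 with the block, 523 with only the 2 groups, and 0 to 0.

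Zbtb38 was no longer called in WT against KO with limma (-1.34 and -1.37), with the block (-2.12) or without any 1 of WT replicates 1 and 2 and KO replicates 1, 3, 4 and 5 (range over all 8 libraries -2.49 to -2.19), nor in WT plus HET against KO with limma (-1.16 and -1.19) or the block (-1.86). It was -2.26 to -1.97 there with a library left out. It was called in HET against KO with DESeq2 and no filter (-1.82 each) and with KO replicate 2 or 6 left out (-2.0 to -1.7), and in WT against HET with only the 2 groups (-0.5).

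Uncalled fold changes turned sign. In WT against KO they turned with the replicate block for Stag3 (-0.11), Tex11 (-1.97), Piwil2 (-0.17), Tdrkh (-3.71), Rnf17 (-1.01), Brdt (-2.56) and Tex14 (-0.33), and with limma for Tdrkh (-0.13 and -0.74), Tex14 (-0.03 and -0.32) and Rnf17 (-0.11). In WT plus HET against KO, Spo11 (0.16) and Dmc1 (2.05) turned with all 10 libraries, Piwil2 (-0.2) and Tdrkh (-3.67) with the block, and Tdrkh with limma (-0.09 and -0.46). With a library left out, WT against KO gave -2.48 to 6.09 for Syce1, -0.17 to 3.01 for Stag3, -0.53 to 0.56 for Tdrkh, -1.27 to 3.9 for Rnf17 and -0.35 to 1.26 for Tex14. WT plus HET against KO gave -1.33 to 0.14 for Syce1, -0.78 to 0.24 for Spo11, -0.59 to 0.83 for Tdrkh, -2.15 to 0.9 for Rnf17 and -0.99 to 0.23 for Tex14. In the block fit, KO replicates 3 to 6 had no control library of the same number. Its fold changes therefore came from replicates 1 and 2 alone. The fit with all 10 libraries gave WT and HET a term each, and Dmc1 was at 0 in HET. The cause of the other turns was not tested. Median numbers of genes detected were 15.5 in WT above 0 counts, and 8.5 in WT and 6.5 in KO at 10 or more counts. The summed KO over WT level was 0.748 to 0.975 with a library left out, mostly an alternative chosen after seeing the data. Libraries with the same replicate number did not deviate together (correlations -0.008 to 0.127). With only 2 libraries each in WT and HET, this cannot decide whether the numbers pair samples, and the labels do not say so. The KO mean over the floor in HET, an alternative chosen after seeing the data, was 2.42 to 3.75 for Dmc1 and 1.83 to 3.67 for Brdt with a KO library left out. The counts of most germline genes were under 100, and the 95% intervals of their changes were wide.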
